A study of Homo sapiens and Mus musculus with 8 samples.

Results

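The genes described here encode the enzymes that make cholesterol and fatty acids, together with a few of the proteins that control them. They were the rows of the count table whose Ensembl identifiers map to 30 listed symbols, 30 of 60483 rows, and all 30 had enough reads to be tested. Of these, 21 belong to the sterol branch and 9 to the fatty acid branch, and the branches were compared throughout.

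Cells build cholesterol from acetyl-CoA through mevalonate, squalene and lanosterol, and build fatty acids from acetyl-CoA through malonyl-CoA. Genes of both branches are targets of the SREBP transcription factors, SREBP2 (encoded by SREBF2), known mainly for sterol genes, and SREBP1 (encoded by SREBF1), known mainly for fatty acid genes. SREBPs sit in the endoplasmic reticulum membrane bound to SCAP, and INSIG proteins hold that complex there when sterols are plentiful. When sterols are scarce, SCAP escorts SREBP to the Golgi, where proteases release the part that enters the nucleus.

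RNA was sequenced from KM12 and LS174T, both human colorectal cancer cell lines, grown in RPMI-1640 with fetal bovine serum or as cell line-derived xenografts, which are tumours raised in mice. KM12 was taken as the parental line, labelled with the genotype GNAS R201H, and as a GNAS knockout. LS174T was labelled GNAS R201H, Dox (-) or Dox (+). Each combination of line, GNAS state and environment was 1 library, 8 in all. GNAS codes for Gs alpha, the G protein subunit that switches on adenylyl cyclase, and R201H is an activating substitution. The labels do not say what Dox induces, whether the knockout is 1 clone, which mice were hosts or how many tumours were taken. Every LS174T library carries the R201H label, so any action of Dox itself cannot be told apart from that of GNAS.

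The libraries held 15924846 to 37735085 counts, and the 4 xenografts (at most 23124811) were shallower than the 4 cultures (at least 31868711). Levels are CPM, a library's counts scaled to a common total, after scaling by trimmed mean of M-values. GNAS was at 1119 CPM in the KM12 parental culture and 298 in the knockout culture, and at 1390 and 903 in their xenografts. It was at 691 CPM in the LS174T Dox (-) culture and 1746 with Dox (+), and at 586 and 691 in the xenografts. All 12 colorectal epithelium markers were at or above 1 CPM in every library, and their summed level was 6887 to 28170 CPM. The KM12 parental xenograft stood apart in fibroblast markers, which summed to 267 CPM there and to 5.43 to 15.3 CPM in the other 7 libraries. COL3A1, a fibrillar collagen gene, made up 220 CPM of it.

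Environment was tested by comparing each xenograft with the culture of the same line and GNAS state, in 4 pairs. Differences are on the log2 scale with a standard error (SE), from the quasi-likelihood test of edgeR, Benjamini-Hochberg adjusted over 16070 genes and a threshold of 0.05. With 1 library a group, the error comes from how far the pairs disagree, not from repeated cultures or tumours. In bulk RNA, fewer cells of a type and less RNA per cell cannot be told apart.

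The sterol branch was higher in the xenografts. Of 21 sterol genes, 14 rose and none fell, 6 of 7 in the mevalonate arm, 6 of 11 in the sterol arm and 2 of 3 regulators. Of 9 fatty acid genes, 1 rose and none fell. This count depended on the tool: DESeq2 called 14 sterol and 5 fatty acid genes, adding FASN, SCD and FADS2 as higher and ACLY as lower, and limma-voom added FADS2 as higher and ACLY as lower. Among all tested genes, edgeR called 12.6% as higher and 13.5% as lower, 26.1% together. The shares of all genes called by DESeq2 and limma-voom are not given here, so their counts stand without a background. The median difference was 0.81 over the sterol genes and 0.39 over the fatty acid genes, against 0.019 over all tested genes. In 16 of 21 sterol genes and 4 of 9 fatty acid genes all 4 pairs were higher in the xenograft, which held for 23.9% of all genes; 1 fatty acid gene, ACLY, was lower in all 4 (25.1%). The 4 xenografts lay wholly above the 4 cultures for 9 sterol and 2 fatty acid genes, against 12.6% of all genes, and wholly below for none (13.8%).

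**Figure D1:**
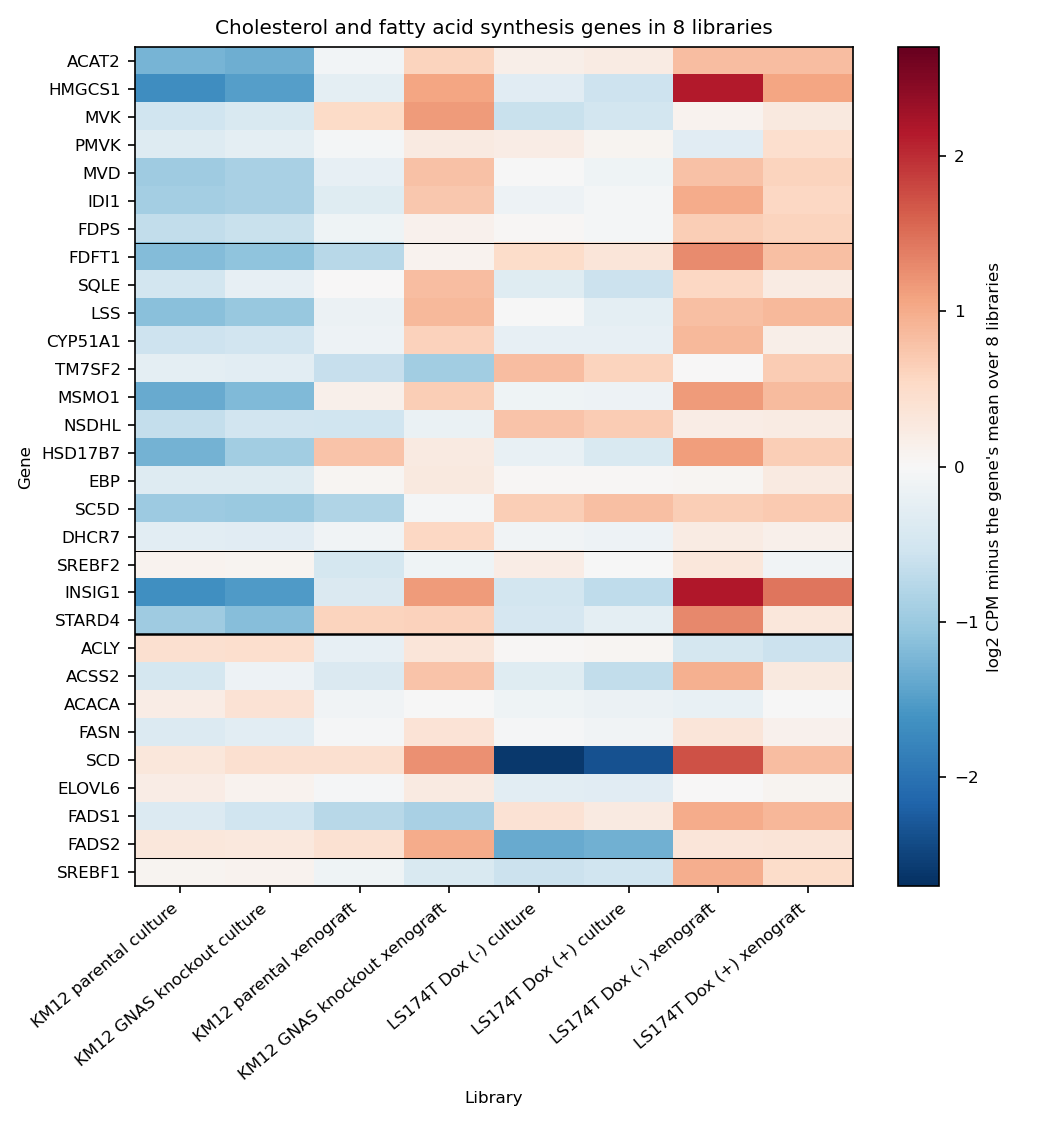
Level of each gene in each library, as log2 CPM minus that gene's mean over the 8 libraries, with sterol genes above the thick line and fatty acid genes below it. Red is above and blue below a gene's mean; thin lines part the roles, and each cell is 1 library. The KM12 cultures are blue for most sterol genes, the LS174T Dox (-) xenograft is red for most of both branches, and SCD and FADS2 are blue in the LS174T cultures.

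Promoters of 6 genes described below are shown: both SREBP genes, 3 sterol genes with large xenograft differences, and SCD, whose difference depended on the line. RefSeq windows on GRCh38.p14, from 250 bases before to 50 after an annotated start, were at hand for 26 of the 30 genes (36 windows). Both strands were searched for TCACNCCAC, a form of the sterol regulatory element, and for CCAAT, the box bound by NF-Y, which was added after the values were seen. The matches do not overlap in the stretches shown. Capitals mark these matches, on either strand, so CCAAT can read ATTGG. Each stretch reads 5′ to 3′ on the gene's strand and ends before the start site.
SREBF2: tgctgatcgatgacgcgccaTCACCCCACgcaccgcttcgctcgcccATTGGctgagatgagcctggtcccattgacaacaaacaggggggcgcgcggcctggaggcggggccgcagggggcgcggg
HMGCS1: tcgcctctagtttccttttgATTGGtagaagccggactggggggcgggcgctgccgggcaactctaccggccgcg
INSIG1: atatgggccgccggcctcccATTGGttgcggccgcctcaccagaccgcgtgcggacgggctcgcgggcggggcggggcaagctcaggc
MSMO1: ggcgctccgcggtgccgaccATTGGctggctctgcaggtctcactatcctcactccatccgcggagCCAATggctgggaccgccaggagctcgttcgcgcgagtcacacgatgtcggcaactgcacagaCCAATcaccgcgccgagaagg
SCD: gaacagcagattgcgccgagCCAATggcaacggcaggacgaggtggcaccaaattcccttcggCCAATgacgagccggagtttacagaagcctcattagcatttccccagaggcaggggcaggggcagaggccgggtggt
SREBF1: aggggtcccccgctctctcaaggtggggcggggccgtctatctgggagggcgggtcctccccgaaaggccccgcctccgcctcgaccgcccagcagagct
The stretches lie at chr22:41832952-41833078 (plus strand) for SREBF2, chr5:43313513-43313587 (minus) for HMGCS1, and chr7:155297688-155297775 (plus) for INSIG1. Those of MSMO1, SCD and SREBF1 lie at chr4:165327464-165327613 (plus), chr10:100346984-100347123 (plus) and chr17:17837003-17837102 (minus).

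Of the 26 genes with a window, SREBF2 alone held TCACNCCAC, which occurs in 1.13% of 35116 windows; the other 5 genes shown were chosen after their values were seen. CCAAT was in a window of 16 of 18 sterol genes and 5 of 8 fatty acid genes that have windows, or 18 of 23 and 7 of 13 windows, against 34.6% of all windows. MSMO1 held 4 matches in its window, of which 3 are in the stretch shown. The SREBF1 window held neither motif. A match is a string of letters and not a measured binding site, and no match says nothing of other forms of the element.

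HMGCS1, which makes HMG-CoA at the entry to the mevalonate pathway, was at 57.2 (parental) and 64.6 (knockout) CPM in the KM12 cultures and at 152 and 382 CPM in their xenografts. In LS174T it was at 146 CPM in the Dox (-) culture and 124 in the Dox (+) culture, and at 808 and 384 CPM in the xenografts. The lowest xenograft lay just above the highest culture. HMGCS1 was 4.05-fold higher in xenografts (log2 2.02 ± 0.25 SE, edgeR adjusted p = 0.00980). The knockout pair and the Dox (-) pair had the larger ratios, 5.92 (95% counting interval 5.64 to 6.21) and 5.52 (5.35 to 5.70). These intervals cover counting error only.

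The next steps convert HMG-CoA's product mevalonate to farnesyl diphosphate, and 5 more genes of this arm rose. ACAT2, a cytosolic thiolase that makes acetoacetyl-CoA, was at 24.4 and 23.6 CPM in the KM12 cultures (parental, then knockout) and 56.0 and 88.7 in the xenografts. In LS174T (Dox (-), then Dox (+)) it was at 65.1 and 68.7 CPM in culture and 105 and 104 in xenografts, so the KM12 xenografts overlapped the LS174T cultures. Its log2 difference was 1.10 ± 0.24 (edgeR adjusted p = 0.0278). ACAT2 shares 1141 exon bases with SOD2 and 397 with TCP1 on the opposite strand, so its counts are uncertain. MVK, mevalonate kinase, was at 26.5 and 28.8 CPM in the KM12 cultures, 55.1 and 85.4 in the KM12 xenografts, 25.1 and 27.0 in the LS174T cultures and 40.9 and 46.0 in the LS174T xenografts. Its highest culture (28.8 CPM) lay below its lowest xenograft (40.9 CPM), a log2 difference of 1.02 ± 0.18 (edgeR adjusted p = 0.0169).

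MVD, which decarboxylates mevalonate diphosphate, was at 54.8 and 58.3 CPM in the KM12 cultures, 91.6 and 184 in the KM12 xenografts, 106 and 98.4 in the LS174T cultures and 184 and 162 in the LS174T xenografts. IDI1, the isopentenyl diphosphate isomerase, was at 45.6 and 47.0 CPM, then 68.0 and 142, then 77.9 and 83.0, then 173 and 127, in the same order. FDPS, which makes farnesyl diphosphate, was at 90.0 and 94.0, then 133 and 156, then 147 and 138, then 228 and 218 CPM. In these 3 genes the KM12 parental xenograft lay below an LS174T culture, so the groups overlapped although each pair was higher in the xenograft. Their log2 differences were 0.97 ± 0.20 for MVD, 0.98 ± 0.21 for IDI1 and 0.64 ± 0.11 for FDPS (edgeR adjusted p = 0.0231, 0.0248 and 0.0167). PMVK, phosphomevalonate kinase, was the exception in the arm at 0.17 ± 0.20 (edgeR adjusted p = 0.535). Its level was 40.5 CPM in the LS174T Dox (-) culture and 28.6 in that xenograft, opposite to the other 3 pairs.

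From squalene onward, the change was uneven. SQLE, squalene epoxidase, was at 60.8 and 72.7 CPM in the KM12 cultures, 86.2 and 153 in the KM12 xenografts, 68.5 and 57.1 in the LS174T cultures and 125 and 99.4 in the LS174T xenografts. The groups did not overlap (log2 0.81 ± 0.14, edgeR adjusted p = 0.0160). FDFT1, squalene synthase, was at 123 and 131, then 164 and 296, then 392 and 349, then 667 and 486 CPM, with both LS174T cultures above both KM12 xenografts (log2 0.71 ± 0.17, edgeR adjusted p = 0.0335). LSS, lanosterol synthase, was at 49.9 and 54.0, then 97.8 and 201.3, then 109 and 91.0, then 193 and 200.7 CPM. Its log2 difference was 1.21 ± 0.21 (edgeR adjusted p = 0.0161). CYP51A1, lanosterol demethylase, ran from 15.4 to 19.5 CPM in cultures and from 20.5 to 41.3 CPM in xenografts (log2 0.75 ± 0.20, edgeR adjusted p = 0.0396). It shares 2844 exon bases with another gene on its strand, so its counts are uncertain, and its call was lost without the filter on low counts.

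MSMO1, which removes the C4 methyl groups, was at 22.5 and 25.2 CPM in the KM12 cultures, 63.5 and 91.4 in the KM12 xenografts, 53.7 and 52.4 in the LS174T cultures and 128 and 104 in the LS174T xenografts. All xenografts were above all cultures, and the log2 difference was 1.40 ± 0.17 (edgeR adjusted p = 0.00980). HSD17B7, a ketoreductase of the same demethylation, was the least abundant member per kilobase of exon. It was at 6.22 and 7.91, then 25.7 and 18.0, then 13.1 and 11.4, then 33.1 and 23.9 CPM, again without overlap (log2 1.40 ± 0.22, edgeR adjusted p = 0.0139). Its lowest value rests on 181 counts.

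The other sterol arm genes did not pass the test. DHCR7 and SC5D act late in the pathway and EBP is the sterol isomerase before them. Their log2 differences were 0.41 ± 0.16 for DHCR7, 0.26 ± 0.20 for SC5D and 0.31 ± 0.14 for EBP (edgeR adjusted p = 0.105, 0.365 and 0.147). EBP xenografts (98.7 to 115 CPM) still lay above its cultures (75.5 to 97.9 CPM), by a narrow gap. NSDHL, the C4 decarboxylase, was at 19.6 and 21.2 CPM in KM12 cultures and 21.2 and 26.8 in KM12 xenografts, but at 52.0 and 49.3 in LS174T cultures and 35.3 and 35.8 in LS174T xenografts. Its pairs thus pointed opposite ways in the 2 lines (log2 -0.14 ± 0.19, edgeR adjusted p = 0.596). TM7SF2, a C14 sterol reductase, was at 31.8 and 31.2, then 25.1 and 19.9, then 68.0 and 58.2, then 38.6 and 61.2 CPM. It was lower in 3 of 4 xenografts (log2 -0.43 ± 0.18, edgeR adjusted p = 0.118).

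INSIG1, the retention protein for SCAP and itself an SREBP target, had the largest difference among the 30. It was at 34.7 (parental) and 38.1 (knockout) CPM in the KM12 cultures and at 83.3 and 241 in their xenografts. In LS174T it was at 78.3 CPM with Dox (-) and 68.6 with Dox (+) in culture, and at 489 and 298 in the xenografts. The groups were separated by the small gap between 78.3 and 83.3 CPM, and INSIG1 was 4.53-fold higher in xenografts (log2 2.18 ± 0.27, edgeR adjusted p = 0.0102). STARD4, a cholesterol carrier, was at 23.8 and 20.8, then 70.1 and 71.5, then 33.7 and 38.3, then 114 and 56.7 CPM, without overlap (log2 1.42 ± 0.24, edgeR adjusted p = 0.0156).

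SREBF2, the gene for SREBP2, did not pass the test. It was at 380 and 376 CPM in the KM12 cultures, 258 and 328 in the KM12 xenografts, 410 and 356 in the LS174T cultures and 442 and 332 in the LS174T xenografts. The groups overlapped, and 3 of 4 pairs were lower in the xenograft (log2 -0.19 ± 0.15, edgeR adjusted p = 0.391). The transcript does not measure the cleaved protein.

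**Figure D2:**
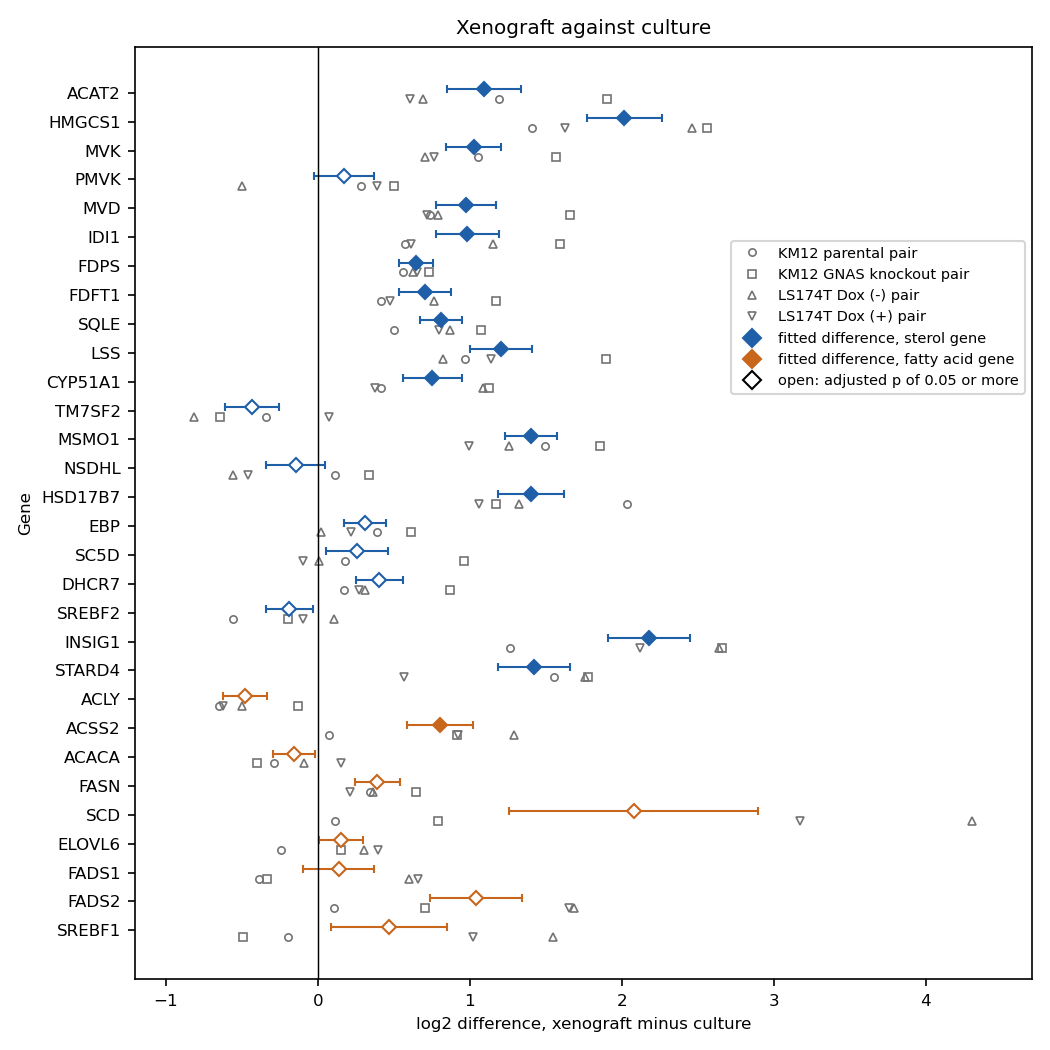
Difference between xenograft and culture for each gene, on the log2 scale: diamonds are fitted differences with 1 SE (filled where the adjusted p is below 0.05), and small grey marks are the 4 single pairs. Sterol genes (blue) gather to the right of 0, with INSIG1 at 2.18 and HMGCS1 at 2.02, while the SCD and SREBF1 marks spread widely by line.

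Among the fatty acid enzymes, ACSS2, which makes acetyl-CoA from acetate, was the one gene to rise. It was at 49.5 and 61.8 CPM in the KM12 cultures, 52.0 and 117 in the KM12 xenografts, 54.1 and 43.3 in the LS174T cultures and 133 and 82.2 in the LS174T xenografts. The KM12 parental pair hardly differed, and the groups overlapped (log2 0.80 ± 0.22, edgeR adjusted p = 0.0423). ACLY, which makes acetyl-CoA from citrate, was lower in all 4 xenografts. It was at 424 and 430, then 270 and 393, then 320 and 324, then 226 and 210 CPM (log2 -0.48 ± 0.15, edgeR adjusted p = 0.0585).

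FASN, fatty acid synthase, was the most abundant of the 30 by median level per kilobase (83.8 CPM per kb). It was at 619 and 658 CPM in the KM12 cultures, 786 and 1032 in the KM12 xenografts, 784 and 753 in the LS174T cultures and 1009 and 871 in the LS174T xenografts. The lowest xenograft (786) lay just above the highest culture (784) (log2 0.39 ± 0.15, edgeR adjusted p = 0.0993). ACACA, acetyl-CoA carboxylase, ranged from 79.8 to 121 CPM and ELOVL6, an elongase, from 51.8 to 76.0 CPM over the 8 libraries. Their differences were -0.16 ± 0.14 and 0.15 ± 0.15 (edgeR adjusted p = 0.416 and 0.456).

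The number of genes past the test depended on single pairs. It was 13 of 30 without the KM12 parental pair and 10 without the KM12 knockout pair. The 13 were FADS2 and 12 of the 15 genes called with all pairs. The number was 3 without the LS174T Dox (-) pair and 0 without the LS174T Dox (+) pair, where only 11 of all 16070 genes passed. Each of these 4 fits also called a smaller share of all genes than the 26.1% called with all pairs. The 3 left without the Dox (-) pair were HMGCS1, MSMO1 and INSIG1. The sterol median stayed between 0.72 and 0.91 in these 4 fits, and the fatty acid median between 0.10 and 0.41. Scaling by total counts alone moved the median of all genes to 0.28, and 19 of the 30 then passed. The share of all genes passing with that scaling is not given here.

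The branches were also compared in each line separately. In KM12, tested alone on its 2 pairs, 10 of 21 sterol genes rose and 0 of 9 fatty acid genes passed, against 19.6% of all genes. In LS174T alone, 15 sterol genes passed, 14 higher and NSDHL lower (log2 -0.51 ± 0.17), and 6 fatty acid genes passed, 5 higher and ACLY lower (log2 -0.56 ± 0.16), against 54.5% of all genes, a fit with 1 residual degree of freedom in each line. The sterol median was 0.82 in KM12 and 0.74 in LS174T, and the fatty acid median was -0.020 in KM12 and 0.63 in LS174T. The fitted sterol median thus exceeded the fatty acid median by 0.42 over both lines, by 0.84 in KM12 and by 0.11 in LS174T. In single pairs the sterol and fatty acid medians were 0.56 and -0.19 for KM12 parental and 1.175 and 0.15 for KM12 knockout. They were 0.77 and 0.60 for LS174T Dox (-), but the order was reversed for LS174T Dox (+), at 0.60 and 0.66. These medians describe the lists; the genes are not replicates, and no test was made of them.

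The line dependence itself was tested gene by gene. Of the 9 fatty acid genes, 4 had a higher xenograft difference in LS174T than in KM12, and none a lower one. None of the 21 sterol genes passed in edgeR, although DESeq2, and edgeR without the filter on low counts, also called ACAT2, with a smaller xenograft difference in LS174T (log2 -0.91 ± 0.27 and edgeR adjusted p = 0.0589 with the filter). In edgeR 4 sterol genes had an unadjusted p below 0.05, all with a lower xenograft difference in LS174T, against 30.2% of all genes at that level. Over all genes 13.7% passed, 7.74% higher and 5.94% lower in LS174T. The 4 genes were SCD, FADS1 and FADS2, which introduce double bonds into fatty acids, and SREBF1, the SREBP gene of this branch.

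SCD, the stearoyl-CoA desaturase that makes oleate, was at 374 (parental) and 409 (knockout) CPM in the KM12 cultures and at 405 and 709 in their xenografts. In LS174T it was at 49.8 CPM in the Dox (-) culture and 59.1 in the Dox (+) culture, and at 987 and 535 in the xenografts. The LS174T cultures stood alone at the bottom, and the LS174T xenografts were within the range of, or above, the KM12 libraries. The single-pair ratios were 1.08 (95% counting interval 1.05 to 1.12) and 1.73 (1.69 to 1.77) in KM12, and 19.8 (18.8 to 20.8) and 9.05 (8.61 to 9.52) in LS174T. The difference between lines was 3.29 ± 0.45 on the log2 scale (edgeR adjusted p = 0.0110). Averaged over both lines, SCD did not pass (log2 2.08 ± 0.82, edgeR adjusted p = 0.109).

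SREBF1 was at 286 and 291 CPM in the KM12 cultures and 250 and 206 in the KM12 xenografts, so both KM12 pairs were lower in the xenograft. In LS174T it was at 183 CPM with Dox (-) and 189 with Dox (+) in culture, and at 537 and 383 in the xenografts, so both pairs were higher. The difference between lines was 1.63 ± 0.24 (edgeR adjusted p = 0.00578). Over both lines the log2 difference was 0.47 ± 0.38 (edgeR adjusted p = 0.381). SREBF1 shares 556 exon bases with RAI1 on the opposite strand, and reads there cannot be assigned if strand was not used.

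FADS2, the delta-6 desaturase, was at 184 and 182 CPM in the KM12 cultures, 197 and 297 in the KM12 xenografts, 58.1 and 60.6 in the LS174T cultures and 187 and 191 in the LS174T xenografts. The LS174T xenografts reached the level of the KM12 cultures (difference between lines 1.27 ± 0.25, edgeR adjusted p = 0.0145). FADS1, the delta-5 desaturase, was at 36.7 and 32.3, then 28.0 and 25.7, then 62.2 and 55.5, then 94.4 and 87.9 CPM. It was lower in both KM12 xenografts and higher in both LS174T xenografts (difference between lines 0.99 ± 0.20, edgeR adjusted p = 0.0171). FADS1 and FADS2 overlap by 490 exon bases on opposite strands, so part of their counts may be shared.

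**Figure D3:**
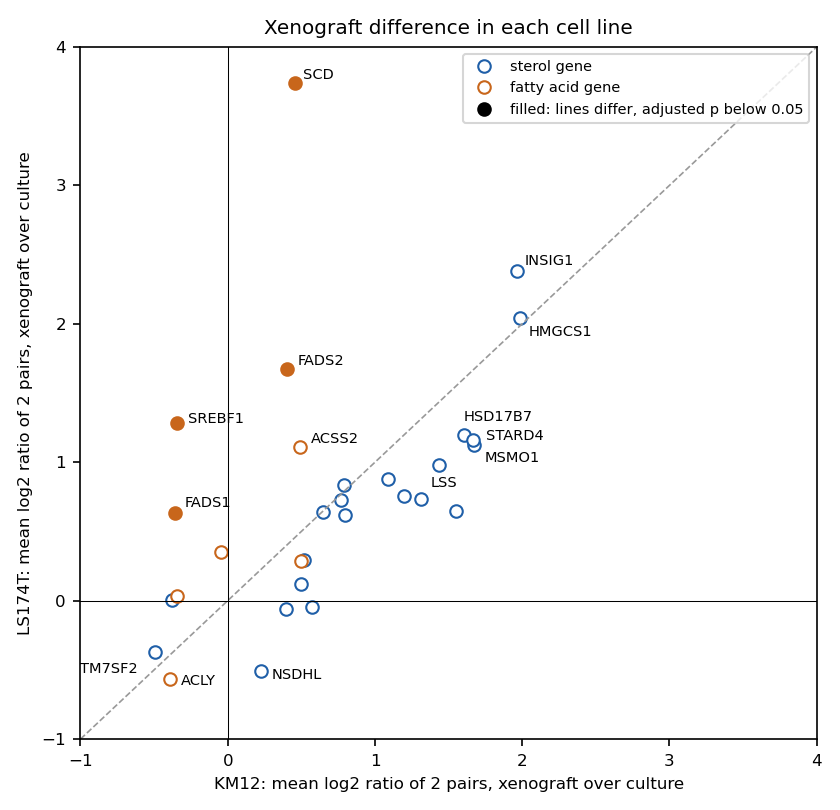
Mean log2 ratio of xenograft over culture in LS174T (vertical) against KM12 (horizontal), each the mean of 2 pairs, for 21 sterol genes (blue) and 9 fatty acid genes (orange). Genes filled in passed the test of a difference between lines; SCD, FADS2, SREBF1 and FADS1 lie above the dashed line of equality, and most sterol genes lie near or below it.

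**Figure D4:**
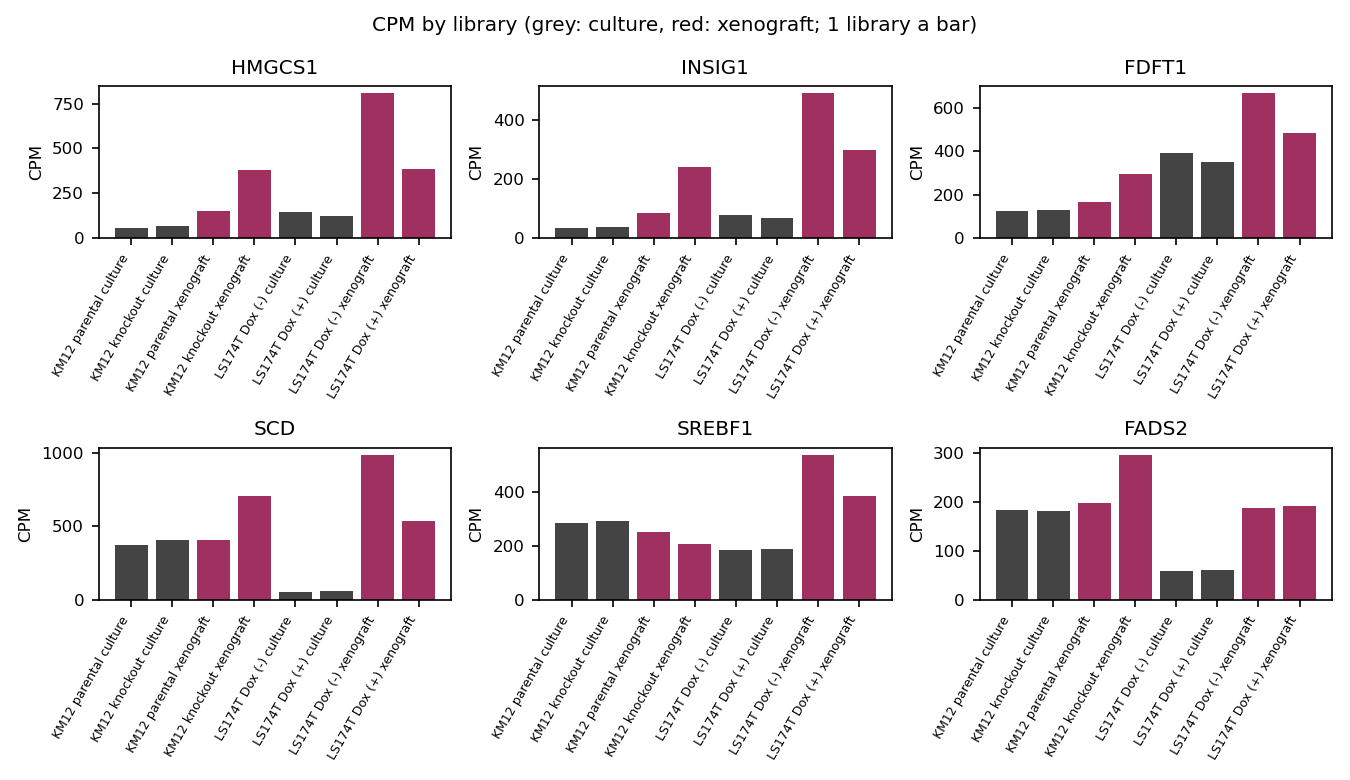
CPM of HMGCS1, INSIG1, FDFT1, SCD, SREBF1 and FADS2 in each library, 1 library a bar, cultures grey and xenografts red. HMGCS1 and INSIG1 peak in the LS174T Dox (-) xenograft at 808 and 489 CPM, and SCD is at 49.8 and 59.1 CPM in the LS174T cultures.

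Marker values that moved with these results are given here; their part in them was not tested. The adipocyte list of 8 genes summed to 61.3 to 133 CPM, nearly all from PPARG, which was 58.5 to 67.0 CPM in the KM12 xenografts and 110 to 129 in the LS174T xenografts. ADIPOQ, the defining adipocyte hormone, had 0 counts in all 8 libraries, and LPL was at or near 0. The fibroblast sum was 267 CPM in the KM12 parental xenograft, and 13 of the 30 genes passed without that pair. In LS174T that sum was 13.8 CPM in both cultures and 5.82 and 5.43 in the xenografts. The leukocyte list ran from 7.81 CPM in the LS174T Dox (+) xenograft to 768 in the KM12 knockout xenograft, and its high values came almost all from LYZ. TYROBP had 0 counts throughout and PTPRC at most 0.04 CPM. The endothelial sum was 0.32 to 1.83 CPM. The epithelial sum was 28170 and 22690 CPM in the LS174T cultures and 9669 and 7075 in the LS174T xenografts. In KM12 (parental, then knockout) it was 8879 and 9005 CPM in the cultures and 6887 and 9482 in the xenografts. Reads from mouse cells may have aligned to human genes in the xenografts, and their part was not tested.

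Related genes outside the 30 were taken from 5 further lists. In the SREBP processing list, 3 of 8 fell in xenografts and none rose, against 13.5% and 12.6% of all genes. SCAP, the escort protein, was at 112 to 128 CPM in the cultures and 71.2 to 97.9 in the xenografts (log2 -0.56 ± 0.15, edgeR adjusted p = 0.0393). MBTPS1, the site-1 protease, fell by 0.56 ± 0.12 on the log2 scale (edgeR adjusted p = 0.0268), and UBE2G2, a ubiquitin-conjugating enzyme, fell by 0.51 ± 0.11 (edgeR adjusted p = 0.0272). INSIG2, the paralog of INSIG1, was at 20.5 and 18.6 CPM in the KM12 cultures, 27.9 and 34.7 in the KM12 xenografts, 14.8 and 15.3 in the LS174T cultures and 129 and 87.0 in the LS174T xenografts. Its xenograft difference was larger in LS174T by 2.14 ± 0.29 (edgeR adjusted p = 0.00376).

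In the list of other sterol synthesis and uptake genes, 4 of 11 rose and none fell, against 12.6% and 13.5% of all genes. For 2 of the 11 the line dependence passed, both higher in LS174T, against 7.74% of all genes. LBR, the other C14 sterol reductase beside TM7SF2, rose by 0.69 ± 0.15 (edgeR adjusted p = 0.0265). NPC1L1, the sterol uptake protein of enterocytes, rose by 2.40 ± 0.52 (edgeR adjusted p = 0.0269) from low levels, 0.48 to 2.33 CPM in cultures and 0.86 to 15.2 in xenografts. Of 8 tested genes of sterol export and storage, none passed edgeR's test and 1 had an unadjusted p below 0.05, against 42.5% of all genes. SOAT1, which esterifies cholesterol, was at 18.5 and 20.7 CPM in KM12 cultures, 12.8 and 11.8 in KM12 xenografts, 3.16 and 4.90 in LS174T cultures and 20.8 and 27.0 in LS174T xenografts. The line dependence passed for SOAT1 (3.25 ± 0.31, edgeR adjusted p = 0.00112) and for 2 of the 8 genes in all, both higher in LS174T, against 7.74% of all genes.

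In the list of other fatty acid and glycerolipid synthesis genes, 3 of 17 rose and 3 fell in the xenografts, shares near those of all genes (12.6% and 13.5%). SLC25A1, the mitochondrial citrate carrier, rose by 0.84 ± 0.13 (edgeR adjusted p = 0.0139) and PNPLA3, a lipid droplet protein, rose by 2.19 ± 0.32 (edgeR adjusted p = 0.0125). ME1, malic enzyme, a source of NADPH, fell by 1.01 ± 0.16 (edgeR adjusted p = 0.0139). The line dependence passed for 7 of these 17 genes, 5 higher and 2 lower in LS174T, against 7.74% and 5.94% of all genes. MLXIPL, which encodes the glucose-responsive factor ChREBP, was at 144 and 121 CPM in KM12 cultures, 10.5 and 5.73 in KM12 xenografts, 52.3 and 46.7 in LS174T cultures and 122 and 106 in LS174T xenografts (difference between lines 5.28 ± 0.27, edgeR adjusted p = 0.000119). ACACB, the mitochondrial acetyl-CoA carboxylase, and LPIN1, a phosphatidate phosphatase, had differences between lines of 2.29 ± 0.29 and 1.80 ± 0.23 (edgeR adjusted p = 0.00295 for both). Of 13 tested genes of fatty acid oxidation and ketogenesis, 3 fell and none rose, against 13.5% and 12.6% of all genes. For 3 of the 13 the line dependence passed, all lower in LS174T, against 5.94% of all genes. CPT1A, which admits fatty acids to mitochondria, fell by 0.79 ± 0.17 (edgeR adjusted p = 0.0266).

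The cell lines also differed in the sterol branch when LS174T was compared with KM12 in 4 pairs of like environment and GNAS state. Of 21 sterol genes, 11 were higher in LS174T and none lower, and of 9 fatty acid genes 1 was higher and 1 lower. Over all genes 31.5% passed, 16.7% higher and 14.8% lower. The median difference was 0.63 over the sterol genes and -0.25 over the fatty acid genes, a gap of 0.88, and -0.018 over all genes. The 4 LS174T libraries lay above the 4 KM12 libraries for 4 sterol genes (FDFT1, TM7SF2, NSDHL and SC5D) and 1 fatty acid gene (FADS1), against 15.2% of all genes, and below them for none (14.5%). All 4 pairs were higher in 11 sterol genes and 1 fatty acid gene (25.6% of all genes) and lower in 2 fatty acid genes (26.5%).

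FDFT1, with the library values above, was 2.74-fold higher in LS174T (log2 1.45 ± 0.13, edgeR adjusted p = 0.00172). SC5D was at 23.9 and 23.4 CPM in KM12 cultures, 27.1 and 45.7 in KM12 xenografts, 74.7 and 82.5 in LS174T cultures and 75.1 and 77.2 in LS174T xenografts. It was near-constant in LS174T and 2.68-fold higher there (log2 1.42 ± 0.21, edgeR adjusted p = 0.00647). HMGCS1 and INSIG1 were higher by 1.18 ± 0.12 and 1.22 ± 0.19 (edgeR adjusted p = 0.00216 and 0.00732), and TM7SF2 by 1.06 ± 0.12 (edgeR adjusted p = 0.00337). MSMO1, IDI1, FDPS, NSDHL, ACAT2 and MVD were also higher, by 0.63 to 1.03, with MVD close to the threshold (edgeR adjusted p = 0.0495). FADS1 was higher by 1.27 ± 0.25 (edgeR adjusted p = 0.0148) and ACLY lower by a log2 difference of -0.49 ± 0.13 (edgeR adjusted p = 0.0390). SQLE (-0.07 ± 0.13) and DHCR7 (0.06 ± 0.14) had the smallest sterol differences between the lines.

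In culture the fatty acid medians of LS174T against KM12 were -0.39 and -0.42 in the 2 pairs, with 7 of 9 genes lower in each, and in xenografts 0.15 and -0.033. SCD, for example, was 6.32-fold and 8.21-fold lower in the LS174T cultures than in the matched KM12 cultures, and 1.32-fold and 1.39-fold higher in the xenografts. The sterol medians were 0.86 and 0.73 in culture and 0.72 and 0.39 in xenografts. Left without 1 of the 4 pairs, the line comparison called 7 to 14 of the 30 genes, and 7 without the pair of cultures with inactive GNAS or 8 without the pair of cultures with active GNAS. Both fits without a culture pair also called fewer of all genes than the full fit, in which 31.5% passed.

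For GNAS, KM12 parental and LS174T Dox (+) were set against KM12 knockout and LS174T Dox (-), and are called active and inactive from the labels alone. Within each pair GNAS was higher in the library labelled active, but the knockout xenograft (903 CPM) lay above both LS174T xenografts (586 and 691 CPM). No gene of the 30, and none of 16070 (0%), passed edgeR's quasi-likelihood test, and 977 (6.08%) had an unadjusted p below 0.05. DESeq2 called 46 genes, none of them among the 30. Without the filter on low counts, edgeR called 6 of the 30 (HMGCS1, FDFT1, SQLE, INSIG1, ACSS2 and SCD) and 281 of all rows with counts. Differences in the 30 genes leaned to lower values with active GNAS: 19 of 21 sterol and 8 of 9 fatty acid genes had a negative log2 difference. Over all genes 7613 of 16070 did. The sterol and fatty acid medians were -0.18 and -0.12, against 0.014 over all genes. The lean was not particular to these genes: 11 of the 12 colorectal epithelium markers were also negative, with a median of -0.57, and 7 were lower in all 4 pairs. In 8 sterol and 2 fatty acid genes all 4 pairs were lower, against 8.01% of all genes, and in none were all 4 higher (9.1%). The 2 GNAS states overlapped for all 30 genes; over all genes 0.0809% were wholly higher and 0.118% wholly lower. Unadjusted p-values were below 0.05 for 6 sterol genes and 1 fatty acid gene.

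HMGCS1 had the most negative difference (log2 -0.71 ± 0.22, edgeR adjusted p = 0.776). It was lower with active GNAS in 4 of 4 pairs, with ratios of 0.885 in KM12 culture, 0.849 in LS174T culture, 0.397 in KM12 xenograft and 0.475 in LS174T xenograft. ACSS2 had the smallest unadjusted p (log2 -0.62 ± 0.15, edgeR adjusted p = 0.776), and its 4 pairs were lower by a log2 ratio of -0.32, -0.32, -1.17 and -0.69 in the same order. INSIG1, SQLE, FDFT1 and MSMO1 were also lower in all 4 pairs, at -0.64 ± 0.24, -0.42 ± 0.12, -0.39 ± 0.13 and -0.26 ± 0.11. With the filter on low counts none of these passed after adjustment, and without it all but MSMO1 did.

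**Figure D5:**
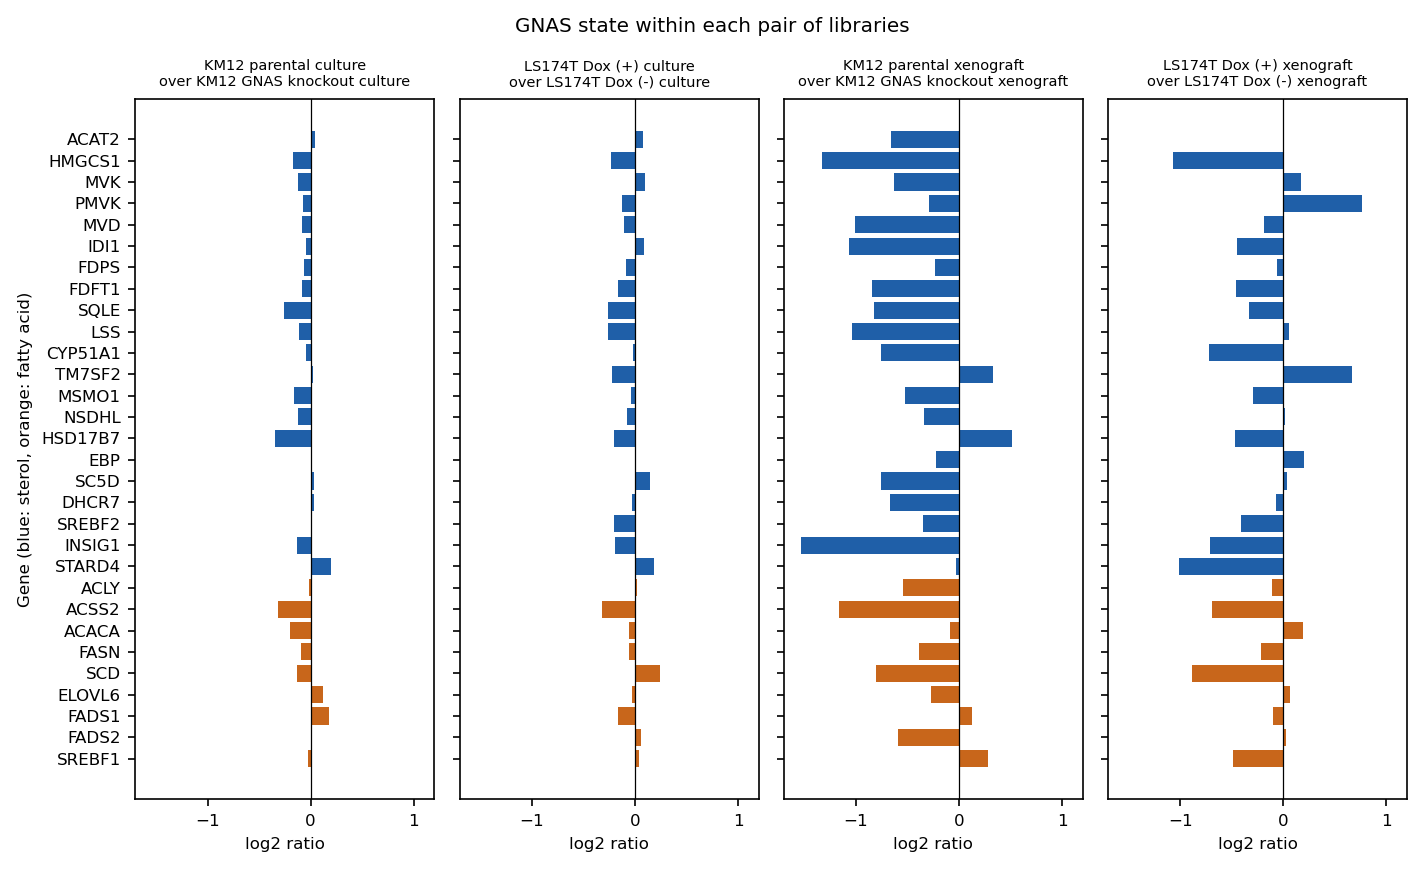
Log2 ratio of active over inactive GNAS for each gene in the 4 pairs of libraries, cultures in the left 2 panels and xenografts in the right 2 (blue sterol, orange fatty acid). Bars are short in both cultures and reach -1.53 for INSIG1 in the KM12 xenografts; each bar compares 2 libraries and has no error.

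The more negative medians were in the xenografts, where GNAS itself differed less within pairs (1390 against 903 CPM in KM12, 691 against 586 in LS174T) than in the cultures (1119 against 298, and 1746 against 691). The sterol median was -0.078 in the KM12 cultures and -0.09 in the LS174T cultures, but -0.66 in the KM12 xenografts and -0.18 in the LS174T xenografts. The fatty acid medians were -0.025 and -0.03 in culture and -0.39 and -0.11 in xenografts. The KM12 parental xenograft, which holds the COL3A1 signal, is 1 of the 2 libraries behind the largest of these values, and the part of that signal was not tested. Of the 12 epithelial markers, 10 were also lower in the KM12 parental xenograft than in the knockout xenograft (median log2 ratio -1.135). Their part was not tested either. A test of whether the GNAS difference depended on environment called no gene of 16070 with edgeR's quasi-likelihood test (809, 5.03%, at an unadjusted p below 0.05). HMGCS1 came nearest among the 30 (log2 -0.997 ± 0.168, edgeR adjusted p = 0.891). DESeq2 called 27 genes, among them HMGCS1 and SCD.

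By library, the LS174T Dox (-) xenograft had the highest level of 11 of 21 sterol and 4 of 9 fatty acid genes, and the KM12 knockout xenograft of 6 and 3. The KM12 parental culture had the lowest level of 13 sterol genes. The sterol genes summed to 1328 CPM in that culture and to 4235 CPM in the LS174T Dox (-) xenograft. The fatty acid genes summed to 1618 CPM in the LS174T Dox (+) culture and 3319 CPM in the LS174T Dox (-) xenograft. Within the branches, the span over libraries was widest for SCD, with a highest level 19.8-fold its lowest, HMGCS1 (14.1-fold) and INSIG1 (14.1-fold), and narrowest for ELOVL6 (1.47-fold) and ACACA (1.52-fold). By median level per kilobase of exon, SCD (75.9 CPM per kb), FDFT1 (62.0) and ACLY (61.7) followed FASN, and FADS1 (4.51) and HSD17B7 (3.25) were lowest. Per-kilobase levels of FDPS (8 named pseudogenes), HSD17B7 (2), SCD (1), FADS2 (1) and CYP51A1 (3, and 2844 exon bases shared with another gene on its strand) are uncertain.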

How the data were processed

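RNA-seq counts for 8 libraries came from a table in which the authors deposited raw read counts per human gene, made with STAR 2.7.2b and HTSeq 0.11.0 per the submitters' processing notes. Those notes name hg38 and GRCm39 without a role; the annotation release, the strand setting and the handling of mouse reads are not given in the sources used here. The table has 60483 rows and 0 mouse identifiers. Gene names and exon lengths came from GENCODE on GRCh38 and named 93.8% of rows.

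By total counts, 16070 genes reached 1 CPM in 2 or more libraries. These were then scaled by TMM and tested by quasi-likelihood F tests in edgeR (edgeR 4.0.16, limma 3.58.1, R 4.3.3). P-values were adjusted by Benjamini-Hochberg over these genes and called below 0.05. Environment, line and GNAS fits kept 4 pairs as a block (3 residual degrees of freedom). The 2 tests of dependence (environment by line, GNAS by environment) had 2. The SE comes from the F statistic (the size of the log2 difference over the root of F); log2 ratios of pairs use a prior count of 2. Dox (+) was set as active GNAS from the labels. Groups hold 1 library, so p-values measure disagreement between pairs, and counting intervals (95%, exact binomial on 2 counts) cover counting error only. The scripts were tested on simulated data.

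Alternatives were DESeq2 1.42.0, limma-voom, other scalings, no filter, leaving out each pair, no pairing, and subsets of libraries. Members and lists were chosen with earlier results of these data known. Values in every library are given for the 5 members with the smallest p in each of the environment, line and GNAS comparisons, up to 12 past the test in each, and SREBF1, SREBF2, INSIG1, HMGCS1, FASN and SCD. From the 5 companion lists (11 sterol synthesis and uptake, 8 SREBP processing, 11 export and storage, 18 fatty acid and glycerolipid, 14 oxidation genes) at most 3 genes with the smallest p at a mean of at least 5 CPM, or up to 5 past the test, are named. Promoters came from RefSeq (GRCh38.p14).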

Additional observations from a re-analysis of the deposited data

Results flagged for a closer look

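The xenograft difference differed between the lines for 4 fatty acid genes, by a test of the difference itself (edgeR's quasi-likelihood test of environment by line, Benjamini-Hochberg over 16070 genes, of which 13.7% passed). The log2 difference, LS174T minus KM12, was 3.29 for SCD (adjusted p = 0.0110), 1.63 for SREBF1 (adjusted p = 0.00578), 1.27 for FADS2 (adjusted p = 0.0145) and 0.99 for FADS1 (adjusted p = 0.0171). In each of the 4 genes both LS174T pairs had a higher log2 ratio than both KM12 pairs. The test that picked them used the same libraries, so this adds no support to it. The same order held for ACSS2, ELOVL6, ACACA and the sterol gene SREBF2, which did not pass. FADS1 and SREBF1 were lower in both KM12 xenografts and higher in both LS174T xenografts. DESeq2, both other scalings and no filter on low counts kept all 4 past the threshold. DESeq2 and the fit without the filter also called ACAT2, a sterol gene, with a smaller xenograft difference in LS174T.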

How the results depend on the processing

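With 1 library a group, the spread of repeated cultures or tumours is not measured. Both the counts of genes past the test and the fitted medians varied between fits. Environment called 15 of the 30 genes. DESeq2 called 19 (adding the fatty acid genes ACLY, FASN, SCD and FADS2), and total-count scaling 19 (adding EBP, DHCR7, FASN and FADS2). Limma-voom called 17 (adding ACLY and FADS2), and median-of-ratios scaling and no filter 15 each. The shares of all genes called in these fits are not given here. Leaving out 1 pair called 0 to 13 (3 without the LS174T Dox (-) pair, 0 without the Dox (+) pair), and 11 to 2659 of all genes instead of 4189. LS174T alone called 8762 of all genes. In KM12 alone the fatty acid median was -0.020 instead of 0.39; the cause was not tested. Without the filter CYP51A1 lost its call and ACLY gained one. Line called 13 genes, and 7 to 14 without 1 pair (2735 of all genes without either culture pair, instead of 5069); MVD lost its call with total counts and ACLY without the filter.

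Without the pairs as a block (no replicate block, with line, environment and GNAS state as additive terms), environment called 17 (adding ACLY and FADS2), line 15 and GNAS 0 of the 30 genes. The shares of all genes are not given for these fits either. The replicate numbers pair no samples, since each group has 1 library; the pairs come from the labels of line, environment and GNAS state.

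GNAS called 0 genes. Without the filter on low counts it called 6 of the 30 (HMGCS1, FDFT1, SQLE, INSIG1, ACSS2 and SCD) and 281 of all rows with counts. That fit tested every row with counts, more than the 16070 genes of the main fit (22939 of 60483 rows had none). DESeq2 called 46 of all genes, cultures alone 273, xenografts alone 10, and the fit without the KM12 culture pair 1. The fatty acid median was 0.0021 in cultures alone instead of -0.12. For GNAS by environment, DESeq2 called 2 of the 30 and 27 of all genes, instead of 0. The fit without a filter called 3 of the 30 and 160 of all rows with counts. For environment by line, the fit without a filter called 3428 of all rows with counts, and the main fit 2198 of 16070 genes. These bases differ, so the 2 counts do not show a larger share. Both DESeq2 and the fit without a filter added ACAT2. Why these counts moved was not tested. The sterol median minus the fatty acid median kept its sign in every alternative fit run for environment, from 0.11 in LS174T alone to 0.84 in KM12 alone. In the single LS174T Dox (+) pair, though, the fatty acid median (0.66) was above the sterol median (0.60). Leaving out pairs was not run for the 2 tests of dependence.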
